A study of Mus musculus with 48 samples.

Results

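Dnase2a encodes deoxyribonuclease II alpha, an endonuclease that cuts DNA in the acid lumen of the lysosome. The gene was chosen by its low values in the H-P/C-HF 2-d mice and its wide spread between mice, and it was followed through all of its probe sets, found by gene symbol: 2 of the 45037 non-control probe sets of the array, and 1 gene of 19324 gene symbols. Probe set 1448986_x_at was annotated to Dnase2a alone, and 1430135_at was annotated to both Dnase2a and Gm38426, a long non-coding RNA gene nearby, so that the second reading cannot be assigned to Dnase2a with certainty. The ending _x_at marks a set in which some probes can also match other transcripts, and the probe sequences were not analysed here.

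The livers came from male C57BL/6J mice that arrived at 6 to 7 weeks of age, ate chow for 2 weeks and were then made obese on the low protein-to-carbohydrate high-fat diet (L-P/C-HF; 15% of energy from protein, 30% from carbohydrate and 55% from fat) for 10 weeks. Obese mice with the poorest glucose tolerance entered the study, so all groups are glucose-intolerant mice and none ate a low-fat diet at the end. The 4 groups were H-P/C-HF 4-wk (30% of energy from protein, 15% from carbohydrate and 55% from fat for a further 4 weeks), L-P/C-HF 4-wk (the first diet continued), H-P/C-HF 2-d (the high-protein diet for 2 days) and L-P/C-HF 2-d. Each held 12 mice with 1 array each. Array B25 of the H-P/C-HF 2-d group is given apart, which left 47 arrays. Array medians lay between 6.73 and 6.91 log2 units, and the 9 measured hepatocyte markers of 10 listed averaged between 12.83 and 13.41 log2 units per array.

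DNase II alpha degrades the DNA of engulfed dying cells and of expelled nuclei, and it is known above all from macrophages, including Kupffer cells, the macrophages of the liver. In mice that lack it, undigested DNA builds up in macrophages and drives an interferon response through the cytosolic DNA sensor pathway. The enzyme belongs to the lysosomal hydrolases, whose activity needs the acid pH set by the vacuolar proton pump. Since whole liver was measured, fewer cells of a type and less RNA per cell cannot be told apart.

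The 250 bases before the annotated start of Dnase2a, and of each of both starts of Csad, are shown because Csad turned out to be the gene whose level followed that of Dnase2a most closely. They are RefSeq sequence of build GRCm38.p6, written 5′ to 3′ on the strand of the gene: chr8:84908505-84908754 (plus strand) for Dnase2a, chr15:102205053-102205302 (minus strand) for Csad start 1 and chr15:102189044-102189293 (minus strand) for Csad start 2. Capitals mark the motif GGGCGG, which transcription factors of the Sp family bind. They also mark the motif CCAAT, which the factor NF-Y binds, each on either strand.
Dnase2a: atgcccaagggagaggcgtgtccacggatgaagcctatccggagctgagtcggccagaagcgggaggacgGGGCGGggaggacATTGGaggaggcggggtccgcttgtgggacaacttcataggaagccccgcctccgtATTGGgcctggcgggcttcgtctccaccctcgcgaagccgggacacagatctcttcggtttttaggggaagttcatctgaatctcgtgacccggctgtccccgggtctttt
Csad start 1: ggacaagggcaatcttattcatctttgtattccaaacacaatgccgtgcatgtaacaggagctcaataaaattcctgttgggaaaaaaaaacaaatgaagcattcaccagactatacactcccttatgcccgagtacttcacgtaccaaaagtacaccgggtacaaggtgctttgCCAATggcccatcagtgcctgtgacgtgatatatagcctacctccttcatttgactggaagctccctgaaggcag
Csad start 2: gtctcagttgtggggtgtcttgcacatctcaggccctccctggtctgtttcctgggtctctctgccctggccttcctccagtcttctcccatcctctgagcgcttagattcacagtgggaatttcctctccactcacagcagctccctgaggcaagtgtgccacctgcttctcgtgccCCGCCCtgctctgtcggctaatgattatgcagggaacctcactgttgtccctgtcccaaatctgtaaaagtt
The Dnase2a window held the Sp motif at 1 place and the NF-Y motif at 2 places, without overlap. Csad start 1 held the NF-Y motif at 1 place, and Csad start 2 held the Sp motif at 1 place. Over all 32851 promoter windows of 250 bases, 32.7% held the Sp motif and 33.8% held the NF-Y motif on either strand. The E-box bound by regulators of lysosomal genes, searched as CACGTG, had no match in these 3 windows, and 6.02% of all windows held it. The half-site of nuclear receptors, searched as AGGTCA on either strand, had none either, and 14% of all windows held it. Guanine and cytosine made up 62.4% of the Dnase2a window, 44.8% of Csad start 1 and 55.6% of Csad start 2, against a median of 52.4% over all windows. A match says only that these letters are present.

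The Dnase2a level of 1448986_x_at was lowest in the H-P/C-HF 2-d mice. In the H-P/C-HF 4-wk mice it ranged between 7.77 and 10.18 log2 units with a median of 8.74, and the mean was 8.86 ± 0.69 (SD, n = 12). In the L-P/C-HF 4-wk mice it ranged between 8.28 and 10.41 with a median of 8.87 and a mean of 8.97 ± 0.62 (SD, n = 12). At 4 weeks the groups overlapped widely: 7 of 12 H-P/C-HF mice lay under the L-P/C-HF median and 2 of 12 under the lowest L-P/C-HF mouse. In the H-P/C-HF 2-d mice the level ranged between 6.65 and 8.28 with a median of 7.45 and a mean of 7.61 ± 0.51 (SD, n = 11). In the L-P/C-HF 2-d mice it ranged between 8.43 and 10.20 with a median of 8.68 and a mean of 8.80 ± 0.48 (SD, n = 12). The 2-d groups did not overlap, and all 11 H-P/C-HF mice lay under the lowest L-P/C-HF mouse. The gene was chosen by low values in this group, and the share of all probe sets without overlap was not computed. Array B25 read 7.05, within the range of its own group. In the order of the means, H-P/C-HF 2-d was followed by L-P/C-HF 2-d, H-P/C-HF 4-wk and L-P/C-HF 4-wk, and the last 3 differed by less than their SD.

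**Figure D1:**
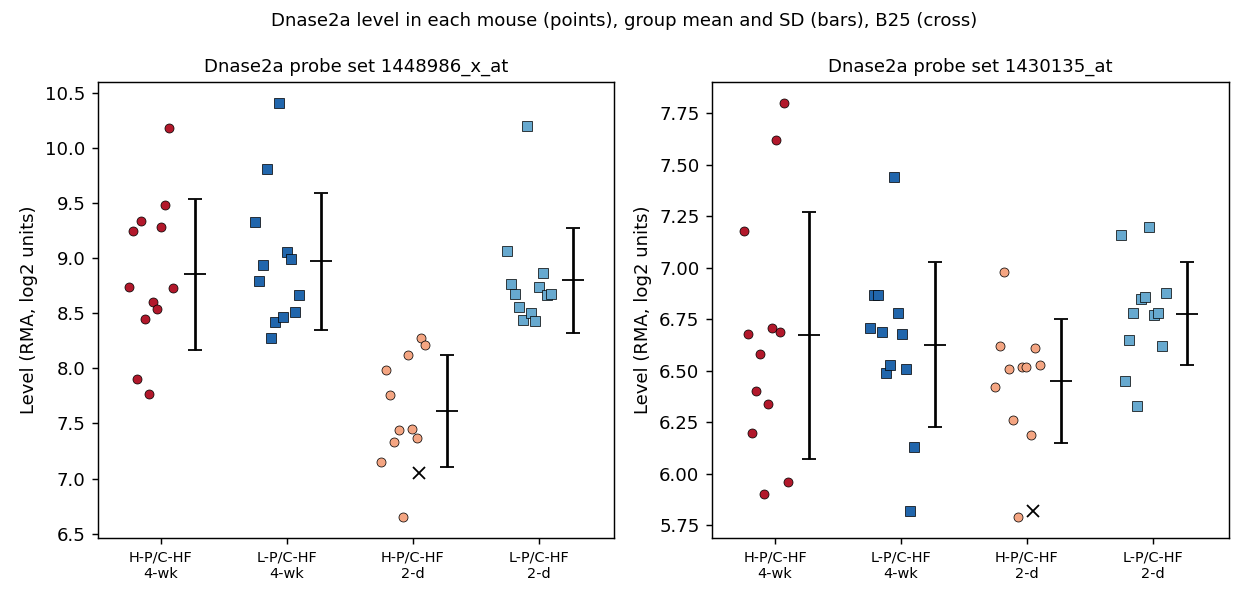
Level of each Dnase2a probe set (RMA values, log2 units) in every mouse of the 4 groups, with the group mean and SD as bars and the array B25 as a cross. For 1448986_x_at the highest H-P/C-HF 2-d mouse (8.28) lies under the lowest L-P/C-HF 2-d mouse (8.43), and the 4-wk groups overlap.

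The diets were first compared at 4 weeks, in mice whose contrast did not lead to the choice of the gene. The wide spread that helped to choose it includes these mice, however, and enters the SE of the comparison. The difference between H-P/C-HF 4-wk and L-P/C-HF 4-wk mice was -0.12 log2 units (SE 0.22, 95% interval -0.56 to 0.33) for 1448986_x_at, and it was far from the threshold (limma, p = 0.597, Benjamini-Hochberg adjusted p = 0.999). The second probe set differed by 0.05 log2 units (SE 0.16, 95% interval -0.27 to 0.36, limma adjusted p = 0.999). No probe set of 45037 passed an adjusted p of 0.05 in this comparison (0%), while 1243 (2.76%) had an unadjusted limma p under 0.05. The interval leaves room for a decrease of 0.56 log2 units, so a moderate difference was not detectable with 12 mice a group.

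At 2 days the gene was chosen for its difference, so these values are a description with no test. The difference between H-P/C-HF 2-d and L-P/C-HF 2-d mice was -1.19 log2 units (SE 0.23), which is 2.28-fold lower in the H-P/C-HF 2-d mice. Over all probe sets 6 of 45037 passed the threshold (0.0133%) in this comparison, and nothing is read from it for Dnase2a. The second probe set differed in the same direction by -0.33 log2 units (SE 0.16), with 10 of 11 H-P/C-HF 2-d mice under the L-P/C-HF 2-d median and 3 of 11 under the lowest L-P/C-HF 2-d mouse. Whether the diet difference itself changed between 2 days and 4 weeks was not tested, since the 2-d contrast chose the gene.

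The second probe set was dimmer and moved less. It averaged 6.67 ± 0.60 log2 units in H-P/C-HF 4-wk mice (SD, n = 12, range 5.90 to 7.80), 6.63 ± 0.40 in L-P/C-HF 4-wk mice (SD, n = 12, range 5.82 to 7.44), 6.45 ± 0.30 in H-P/C-HF 2-d mice (SD, n = 11, range 5.79 to 6.98) and 6.78 ± 0.25 in L-P/C-HF 2-d mice (SD, n = 12, range 6.33 to 7.20). Neighbours in the order of these means differed by less than the SD of the mice. After each group's mean was taken off, both probe sets were related over the 47 mice (Pearson r = 0.61, p = 5e-05; Spearman rho = 0.53, p = 3e-04; two-sided permutation tests with 100000 resamples within groups, 1 relation computed). The r was 0.60 without the 2 mice farthest from the median, 0.68 within the 24 4-wk mice and 0.45 within the 23 2-d mice.

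The spread between mice helped to choose the gene and is given as a description. The SD within groups was 0.58 log2 units for 1448986_x_at, larger than that of 99.5% of all probe sets, and 0.41 for 1430135_at, larger than that of 97.69%. The median over all probe sets was 0.18.

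The levels were examined for a step, that is a gap which would part the mice into a low and a high class. Sorted by the level of 1448986_x_at, the 47 mice formed a continuous series. The widest gap was 0.50 log2 units, 13.3% of the range, and it parted only the lowest mouse (6.65, H-P/C-HF 2-d) from the next (7.15). Among the 23 2-d mice alone the widest gap was 1.13 log2 units, 31.8% of their range. It parted only the highest of them (10.20, L-P/C-HF 2-d) from the next (9.07). The widest gap with at least 5 mice on either side was 0.31 log2 units, between 7.45 and 7.76, or 8.25% of the range, and 76.05% of all probe sets had a smaller one. A split between 8.28 and 8.42, with 14 mice below it, accounted for 55.9% of the variance, against a median of 64.6% for the best split of all probe sets.

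The fitted mixture of 2 normal distributions described the levels no better than 1. The Bayesian information criterion of 2 components of equal variance minus that of 1 was -7.72 over the 47 mice, where a negative value favours 1 component, and it was -11.6 with unequal variances. It was -4.19 in the 4-wk mice and -6.37 in the 2-d mice. Over the 47 mice and in the 2-d mice these values were about the criterion's penalty for the added parameters alone. The fitted second component there brought no gain in likelihood. Whether a better fit of 2 components exists was not tested, so these values do not decide between 1 class and 2. In all, 3714 of 45037 probe sets (8.25%) favoured 2 components, and the median was -5.84. With the group means taken off the value was -2.05 for 1448986_x_at. For 1430135_at it was -7.70 both with and without the group means, and 3.35 with unequal variances and the group means taken off, the 1 setting that favoured 2 components. At the upper end 4 mice stood above 9.5 log2 units: 1 H-P/C-HF 4-wk mouse (10.18), 2 L-P/C-HF 4-wk mice (9.81 and 10.41) and 1 L-P/C-HF 2-d mouse (10.20). The high readings were thus found on both diets and at both times.

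**Figure D2:**
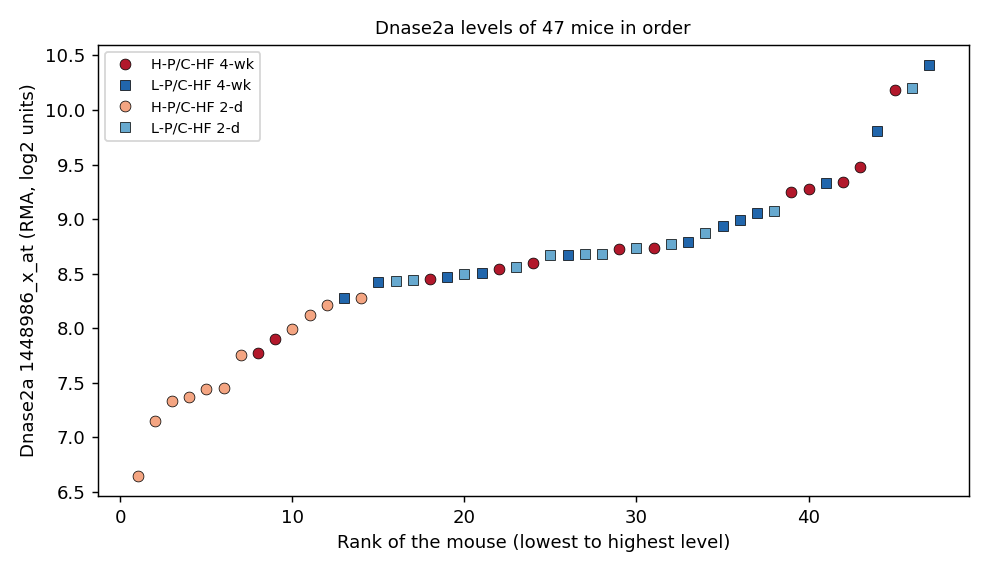
Level of 1448986_x_at (RMA values, log2 units) of the 47 mice against their rank, with colour and shape for the group. The series has no gap wider than 0.50 log2 units, the H-P/C-HF 2-d mice take 11 of the 14 lowest places, and the 4 mice above 9.5 come from the other 3 groups.

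The next question was which other probe sets followed Dnase2a from mouse to mouse. Each of the other 45035 probe sets was fitted on the group and on the level of 1448986_x_at, so that a slope describes mice of the same diet and time. In this fit 5 probe sets passed an adjusted p of 0.05 (0.0111%), 4 with a positive slope (0.00888%) and 1 with a negative slope (0.00222%), while 4436 (9.85%) had an unadjusted limma p under 0.05. All 5 carried 1 gene symbol each: Csad, Cyp2j9, Slc43a1, Ddhd2 and Gpd1.

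Csad stood far ahead of the others. It encodes cysteine sulfinic acid decarboxylase, the enzyme by which the liver makes hypotaurine, the precursor of taurine, from a product of cysteine. Its only probe set, 1427981_a_at, rose by 1.06 log2 units per log2 unit of Dnase2a (SE 0.08, limma adjusted p = 7.05e-14, 47 mice). The deviations of both genes from their group means had a Pearson r of 0.90 and a Spearman rho of 0.80, and r was 0.86 without the 2 mice farthest from the median. With the roles turned, each other probe set being fitted on the group and Csad, Dnase2a 1448986_x_at had the smallest p of 45036 (slope 0.76, SE 0.06, limma adjusted p = 1.16e-13), and 5 probe sets passed (0.0111%). The p of the turned fit tests the same relation again and is no further support. Only the rank of Dnase2a among all probe sets is added by it.

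**Figure D3:**
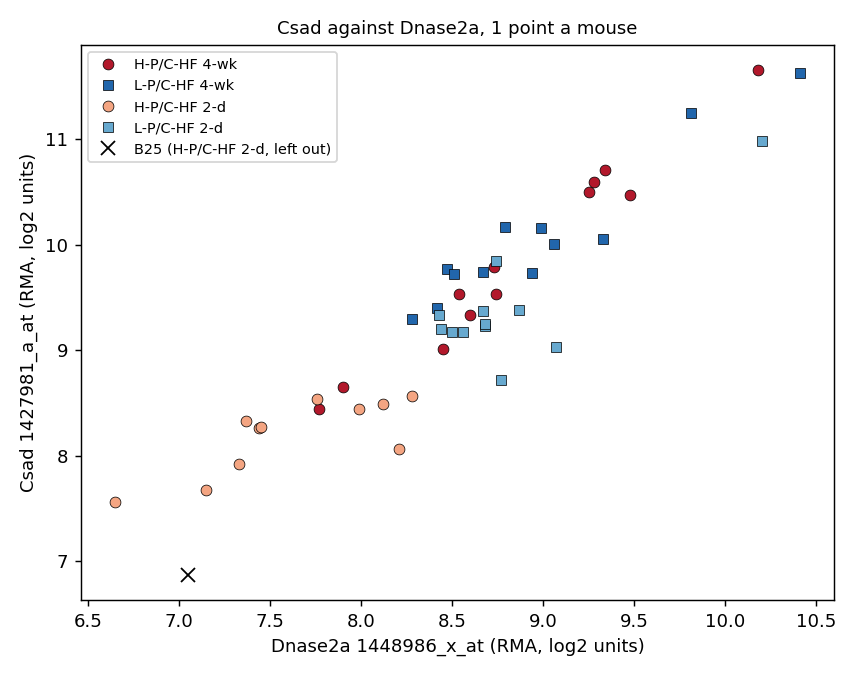
Level of Csad against that of Dnase2a (both RMA values, log2 units), 1 point a mouse, with colour and shape for the group and array B25 as a cross. The 4 mice above 9.5 in Dnase2a all read 10.99 or more in Csad, and the H-P/C-HF 2-d mice lie at the low end of both.

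The 4 mice highest in Dnase2a were also the 4 highest in Csad. The H-P/C-HF 4-wk mouse with 10.18 log2 units of Dnase2a had 11.66 of Csad, and the L-P/C-HF 4-wk mice with 10.41 and 9.81 had 11.63 and 11.25. The L-P/C-HF 2-d mouse with 10.20 had 10.99, and the mouse lowest in Dnase2a (6.65, H-P/C-HF 2-d) was with 7.56 also the lowest in Csad. The relation did not rest on the 4 high mice alone, since the slope without them was 0.90 (limma adjusted p = 3.81e-06).

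By group, Csad averaged 9.85 ± 0.95 log2 units in H-P/C-HF 4-wk mice (SD, n = 12, range 8.44 to 11.66), 10.08 ± 0.70 in L-P/C-HF 4-wk mice (SD, n = 12, range 9.30 to 11.63), 8.19 ± 0.35 in H-P/C-HF 2-d mice (SD, n = 11, range 7.56 to 8.57) and 9.39 ± 0.57 in L-P/C-HF 2-d mice (SD, n = 12, range 8.72 to 10.99). The 2-d groups did not overlap in Csad either, where again the share of all probe sets without overlap is not known. The diet difference of Csad was -0.23 log2 units at 4 weeks (SE 0.26, limma adjusted p = 0.999) and -1.20 at 2 days (SE 0.27). Csad was named because it followed Dnase2a, which was chosen by its low values in the H-P/C-HF 2-d mice. The 2-d difference of Csad is therefore a description with no test. Array B25 read 6.87 for Csad, under all 47 mice.

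The relation was tightest in the 4-wk mice. Within groups the slope of Csad on Dnase2a was 1.37 (SE 0.08, r = 0.98, n = 12) in H-P/C-HF 4-wk mice, 1.06 (SE 0.11, r = 0.95, n = 12) in L-P/C-HF 4-wk mice, 0.52 (SE 0.15, r = 0.76, n = 11) in H-P/C-HF 2-d mice and 0.95 (SE 0.22, r = 0.80, n = 12) in L-P/C-HF 2-d mice. Without the 2 farthest mice of the group, r was 0.97 in H-P/C-HF 4-wk, 0.78 in L-P/C-HF 4-wk, 0.53 in H-P/C-HF 2-d and 0.10 in L-P/C-HF 2-d mice. In the L-P/C-HF 2-d group the relation therefore rested on the 1 high mouse, array A06, and the rank correlation there was 0.20. Over the 4-wk mice alone the slope was 1.23 (SE 0.07, limma adjusted p = 3.82e-12). Over the 2-d mice alone it was 0.74 (SE 0.13), with the smallest p of all probe sets (5.85e-06, limma) but past no adjusted threshold (adjusted p = 0.218). Without A06 the 2-d slope was 0.44 (SE 0.15, unadjusted limma p = 0.00667), and Csad took place 958 of 45035. The slope at 4 weeks minus that at 2 days was 0.49 (SE 0.15, unadjusted limma p = 0.00139, adjusted p = 0.999), and no probe set passed for this difference (0%).

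Csad at a given Dnase2a level was related to RNA quality, while neither gene alone passed a test on it. RNA quality was measured as the signal of the 3′ control probe sets of Gapdh and beta-actin minus that of the 5′ sets, so that a high value means less intact RNA. The measure averaged 0.27 log2 units in H-P/C-HF 4-wk mice, 0.24 in L-P/C-HF 4-wk mice, 0.48 in H-P/C-HF 2-d mice and 0.48 in L-P/C-HF 2-d mice, so the means were higher at 2 days than at 4 weeks and alike between the diets at each time. Per unit of it within groups, Dnase2a differed by 1.17 log2 units (SE 0.63, limma adjusted p = 0.291) and Csad by -0.43 (SE 0.76, adjusted p = 0.824). At a given Dnase2a level, Csad fell by 1.79 log2 units per unit (SE 0.25, limma adjusted p = 3.8e-07), where 4599 of 45035 probe sets passed (10.2%). With RNA quality in the fit, the slope of Csad on Dnase2a was 1.16 (limma adjusted p = 2.92e-21), larger than without it.

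The other 4 genes, each read from its 1 called probe set, followed Dnase2a less steeply. Any further probe sets of these genes are not reported here. Cyp2j9, a cytochrome P450 of the family that oxidizes arachidonic acid, had a slope of 0.37 (SE 0.06, limma adjusted p = 0.0126, r = 0.65). Its probe set was rather dim, between 5.52 and 7.09 log2 units, where the array medians lay between 6.73 and 6.91. Gpd1, the cytosolic glycerol-3-phosphate dehydrogenase that makes the glycerol backbone of triglycerides, had a slope of 0.25 (SE 0.05, limma adjusted p = 0.0487, r = 0.62). Ddhd2, a phospholipase that also splits triglycerides, had a slope of 0.37 (SE 0.07, adjusted p = 0.0487, r = 0.60), and its probe set was dim, between 4.23 and 6.12 log2 units. Slc43a1, a carrier of branched-chain and other large neutral amino acids, had a slope of -0.36 (SE 0.07, adjusted p = 0.0487, r = -0.61). Gpd1 read 10.38 to 11.60 log2 units in H-P/C-HF 4-wk mice, 10.66 to 11.68 in L-P/C-HF 4-wk mice, 10.36 to 10.82 in H-P/C-HF 2-d mice and 10.71 to 11.24 in L-P/C-HF 2-d mice. None of the 4 passed without the 4 mice above 9.5, when Csad alone passed. The slopes there were 0.25 for Cyp2j9 (limma adjusted p = 0.446), 0.22 for Gpd1 (0.385), 0.37 for Ddhd2 (0.341) and -0.36 for Slc43a1 (0.341), so those of Ddhd2 and Slc43a1 were about as large as with all mice and that of Cyp2j9 was smaller. None of the 4 passed with the rank of Dnase2a in place of its level. Just outside the threshold lay Lrp2bp (adjusted p = 0.0534), Crat (0.0562), the carnitine acetyltransferase, and Me1 (0.0897), the malic enzyme that supplies NADPH for fatty acid synthesis.

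Genes found in one set of mice were then read in the other. In the 4-wk mice alone 5 probe sets passed (0.0111%), namely Csad, Lhx6, Retsat, 1416896_at, which carries no symbol here, and Me1. In the 2-d mice the slopes of these were 0.74 for Csad, -0.10 for Lhx6 (unadjusted limma p = 0.45), -0.01 for Retsat (p = 0.962), -0.03 for 1416896_at (p = 0.809) and 0.32 for Me1 (p = 0.0488). Csad had the smallest p of the 5 in the 2-d mice, with the dependence on A06 given above. No probe set passed in the 2-d mice alone (0%), and 3440 had an unadjusted limma p under 0.05 there.

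The genes around Dnase2a on chromosome 8 were read in the same fit. The 5 nearest genes with a probe set on each side (Calr, Farsa, Syce2, Gcdh and Klf1 on one side, Mast1, Rtbdn, Rnaseh2a, Prdx2 and Junb on the other) had 17 probe sets, and none passed, where 0.0111% of all probe sets did. Their slopes lay between -0.14 and 0.07. The farthest from 0 was that of Klf1 (-0.14, SE 0.05, limma adjusted p = 0.344), a red cell transcription factor that borders Dnase2a. None passed in either diet comparison, where 0% of all probe sets passed at 4 weeks and 0.0133% at 2 days.

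**Figure D4:**
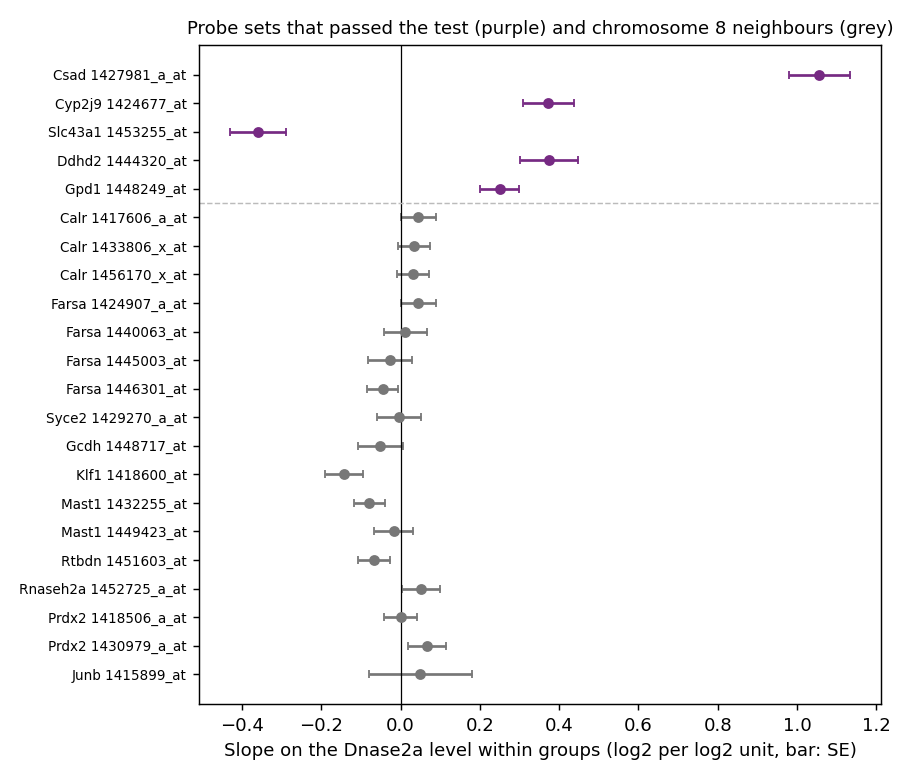
Slope on the Dnase2a level within groups (log2 units per log2 unit, bars are the SE) of the 5 probe sets that passed the test, in purple, and of the 17 probe sets of the chromosome 8 neighbours, in grey. Csad stands at 1.06, the other 4 between -0.36 and 0.37, and the neighbours between -0.14 and 0.07.

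The genes that share the work of DNase II were read next, by the brightest probe set of each gene. No member of any list passed the fit on the Dnase2a level or either diet comparison. Over all probe sets 0.0111% passed the fit, 0% the 4-wk comparison and 0.0133% the 2-d comparison. With shares so small, the absence of passes says little about these lists. Over all 18192 genes 43.3% of slopes were positive, the median slope was -0.01 and 9.14% had an unadjusted p under 0.05. Of 17 other nucleases 6 had a positive slope (median -0.03), and the smallest p belonged to Rnaseh2c, a subunit of the enzyme that removes ribonucleotides from DNA (slope 0.16, SE 0.05, unadjusted limma p = 0.00177, adjusted p = 0.31). Dnase2b, the closest relative of Dnase2a, had a slope of -0.0019 (SE 0.05). Dnase1l3, a secreted nuclease of liver macrophages and plasma, had a slope of 0.07 (SE 0.06).

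Slopes of lysosomal genes lay on both sides of 0. Of 37 lysosomal enzymes and membrane proteins 13 had a positive slope (median -0.02), 2 with an unadjusted p under 0.05 (Arsa, 0.14, and Tpp1, 0.08) and 2 negative ones (Ctss, -0.26, and Man2b1, -0.09). Of 17 genes of lysosome acidification 9 had a positive slope (median 0.01), with Atp6ap2 at 0.13 and Atp6v1e1 at -0.09.

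Slopes of genes that sense nucleic acids and of interferon response genes were mostly negative, with medians near 0. Of 18 sensing genes 6 had a positive slope (median -0.04), and the smallest p was that of Tlr7, an endosomal receptor for single-stranded RNA (slope -0.16, SE 0.05, unadjusted limma p = 0.000839). Of 17 interferon response genes 4 had a positive slope (median -0.06), and 2 had an unadjusted p under 0.05, Ifit3 (-0.17) and Ifit2 (-0.11). Of 18 genes for the engulfment of dying cells 7 had a positive slope (median -0.04), and the 5 with an unadjusted p under 0.05 were all negative, among them C1qa (-0.29), C1qb (-0.35), C1qc (-0.29) and Stab2 (-0.13).

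Markers of Kupffer cells and macrophages lay on the negative side. All 14 listed were measured and all 14 slopes were negative (median -0.21), 7 with an unadjusted p under 0.05 and none past the adjusted threshold. Over all genes 9.14% of slopes had an unadjusted limma p under 0.05. The smallest p belonged to Vsig4, a complement receptor of Kupffer cells (slope -0.34, SE 0.10, unadjusted limma p = 0.00167), followed by Cybb (-0.21), Cd68 (-0.23) and Lyz2 (-0.29). The mean level of the 14 ranged between 7.88 and 9.06 log2 units in H-P/C-HF 4-wk mice, 8.33 and 9.51 in L-P/C-HF 4-wk mice, 7.84 and 8.43 in H-P/C-HF 2-d mice and 7.74 and 8.75 in L-P/C-HF 2-d mice, and its deviation correlated with that of Dnase2a at r = -0.37 (47 mice). The same r was -0.42 for the 2 pancreatic acinar genes, -0.20 for erythroid, -0.19 for skeletal muscle, -0.02 for hepatocyte and 0.08 for adipocyte genes. A negative relation was thus not particular to the macrophage markers. In the diet comparisons 13 of 14 differed downward at 4 weeks (median -0.30, 8 with an unadjusted p under 0.05) and 14 of 14 at 2 days (median -0.10, none under 0.05). Over all genes 40.1% differed upward at 4 weeks (median -0.02) and 53.2% at 2 days (median 0.01). At 4 weeks 2.76% of all probe sets had an unadjusted limma p under 0.05. The part of these cells in the Dnase2a values was not tested.

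**Figure D5:**
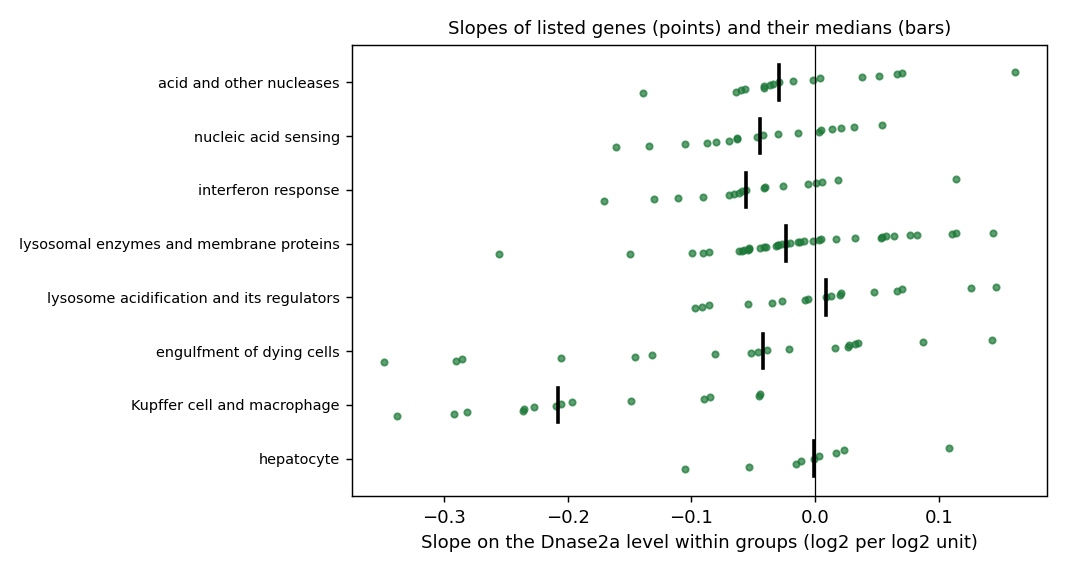
Slope on the Dnase2a level within groups (log2 units per log2 unit) of the genes of 8 lists, 1 point a gene, with the median of each list as a bar. The Kupffer cell and macrophage markers all lie under 0, with a median of -0.21, and the other 7 lists plotted have medians between -0.06 and 0.01. Neutrophil, skeletal muscle and pancreatic acinar genes, whose slopes were also all negative, are not plotted.

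Of 9 hepatocyte markers 4 had a positive slope (median -8e-04), and none had an unadjusted p under 0.05. Among markers of other cells, positive slopes were seen for 2 of 9 lymphocyte, 0 of 7 neutrophil, 3 of 8 sinusoidal endothelial, 1 of 7 stellate cell, 1 of 4 cholangiocyte, 1 of 5 erythroid, 1 of 3 adipocyte, 0 of 5 skeletal muscle and 0 of 2 pancreatic acinar genes. None of these passed the threshold, and the medians lay between -0.13 (pancreatic acinar) and -0.01 (erythroid), with -0.08 for the neutrophil genes.

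The second probe set called far more probe sets than the first. With 1430135_at in place of 1448986_x_at, 16943 of 45035 probe sets passed (37.6%), Csad among them (slope 0.97, limma adjusted p = 0.000255). Its deviations correlated with the first principal component of all probe sets' deviations, which held 31.47% of their variance, at an absolute r of 0.60, against 0.15 for 1448986_x_at and 0.22 for Csad.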

How the data were processed

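Liver RNA of 48 mice was hybridised to Affymetrix mouse genome GeneChip arrays, 1 array a mouse, in 4 groups of 12 taken from the labels' diet and time (HPHC is the H-P/C-HF diet, HFHC the L-P/C-HF diet). The authors deposited values normalised by RMA, which corrects background, equalises the arrays and summarises probes; the log2 scale was inferred from the range of the deposited values. RMA makes array distributions alike, so a shift of all genes would not be seen. Probe sets were named from GEO's platform annotation: of 45101 rows 64 were controls, and of the other 45037 34945 had 1 gene symbol, 932 several and 9160 none. Neighbours and promoters came from RefSeq (GRCm38.p6).

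Of the methods' ANOVA with a global error, which was not run, limma's moderated test took the place. All 47 arrays were fitted in 1 model with limma 3.58.1 (lmFit, eBayes with a trend over the mean level) in R 4.3.3, with Benjamini-Hochberg adjustment over all probe sets and a threshold of 0.05. The step was described with mclust 6.1.1. The probe set with the larger SD within groups, 1448986_x_at, served as covariate. Named are all Dnase2a probe sets, up to 12 called genes with the smallest p, 5 neighbouring genes on each side, and up to 4 members of each list with the smallest p; Dnase2b and Dnase1l3, and the 4 genes named from the 4-wk mice and 3 just past the threshold, were named after their values were seen. The gene, the 17 lists (219 genes, 197 matched) and the tests were chosen with earlier results of these data known. Models and mixtures were tested on simulated data. Alternatives concerned the arrays used, normalisation, RNA quality, the replicate number, filters and the samples; 5 were added after seeing the data. Precision is limited by the number of arrays. The labels number the mice of a group; each is taken as 1 animal.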

Additional observations from a re-analysis of the deposited data

How the results depend on the processing

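The 4-wk diet difference of 1448986_x_at kept its sign in the 11 alternatives run (-0.15 to -0.10 log2 units, lowest unadjusted p = 0.484). That of 1430135_at, 0.05 log2 units, was -2e-04 without the arrays A01, A09 and A24, and reached 0.06 at most. The 2-d difference of 1448986_x_at was -1.23 with B25 included and -1.17 without A01, A09 and A24. The number of probe sets that followed Dnase2a, 5, was 8 without A01, A09 and A24 (all 5 shared), 12 with RNA quality as a covariate (3 shared), 3 over brighter probe sets alone, 1 with the rank of Dnase2a, 0 in the 2-d mice alone by limma (3440 with an unadjusted p under 0.05) and 16943 with 1430135_at in place of 1448986_x_at. In alternatives chosen after seeing the data it was 1 without the 4 mice above 9.5 and 2004 with Csad as a further covariate. The cause of these shifts was not tested. The slope of Csad kept its sign in 14 of 14 alternatives and its threshold in 12, the exceptions being the 2-d mice with A06 (0.74) and without it (0.44). No slope of the 5 named genes changed sign, but Cyp2j9 passed in 6 of 12 alternatives, Slc43a1 in 5 of 13, Ddhd2 in 4 of 12 and Gpd1 in 7 of 13. Each of these counts, that of Csad included, takes in the setting with 1430135_at, where 16943 of 45035 probe sets passed. That of Slc43a1 also takes in the fit with Csad as a further covariate, where 2004 passed. A pass in these settings therefore says little. Slc43a1 was lost with B25 included, with arrays centred on their medians and with RNA quality, Ddhd2 with cyclic loess and with RNA quality, Cyp2j9 with cyclic loess, and Slc43a1, Ddhd2 and Gpd1 with the replicate number as a block. The criterion for a step, -7.72, was -4.19 in the 4-wk mice alone and -11.6 with unequal variances, and it stayed negative in all alternatives run. Most of these values were about the penalty for added parameters alone, so their sign does not decide between 1 class and 2.

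Replicate numbers do not pair the mice: deviations of same-numbered mice of different groups had a mean correlation of -0.02 (69 pairs, -0.62 to 0.60), against 0.00 for other pairs (759). With the replicate number as a block, 2 probe sets passed, both among the 5.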
